A study of Mus musculus with 12 samples.

Results

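Endothelial cells of mouse bone marrow were compared between 2 sorted populations, capillaries with much CD200 on their surface and type H vessels. The comparison covered 6 of the 12 libraries of the series, the 3 of each population, and all genes of the deposited table. The cells came from untreated B6 mice, whose tibia, femur and iliac bones were crushed to free the marrow. CD200-high capillaries were gated as CD200Hi, Sca1+, CD31+, EMCN- and CD45-. Type H vessels were gated as EMCN+, Sca1+, CD31+ and CD45-, and their label names no CD200 gate. No genotype, transgene or treatment separates the groups, so each population is defined by its gate alone. The labels speak of biological triplicates from 6 mice. Each deposited column is headed with a mouse number, called its replicate here, and both populations use the same numbers. Whether an equal number stands for the same mouse, or a library pools mice, is not given in the sources used here. The p-values therefore measure the spread between the libraries of the series.

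Blood enters the marrow through small arteries, which open into capillaries near the bone surface and drain into sinusoids and veins. Type H capillaries, rich in CD31 and endomucin, lie close to the growth plate and the bone-forming surfaces, next to cells that mature into osteoblasts. CD200 is a surface glycoprotein whose receptor on myeloid cells restrains their activation. Endomucin is a sialoglycoprotein of the endothelial surface, typical of capillaries, sinusoids and veins.

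Values are log2 CPM (counts per 1e6 reads, after the authors' scaling between libraries, with 0.5 read added), so a gene without reads reads about -4 to -5. Listed reads ran from 7.33 to 15.8 M (1e6 reads) in CD200-high and from 16.2 to 20.2 M in type H libraries. Differences are CD200-high minus type H on the log2 scale ± SE, from limma fitted to all genes and all 12 libraries. The mean of a single population is given ± the standard deviation over its 3 libraries. A gene was called at an adjusted p under 0.05. Of 17086 genes tested, 1138 were higher in CD200-high (6.66%) and 1085 lower (6.35%), 13.0% in all. The lower calls were 710 without type H replicate 1 and 691 without type H replicate 3. The 3 libraries of one population lay above the 3 of the other in 30.9% of the genes (16.6% with CD200-high above and 14.4% with type H above). Gene lists are described by how many of their tested members were called and by their median difference, which was -0.05 over all genes tested.

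The label type H is used here as the name of the gate, because markers divided the libraries otherwise than the labels do. Genes of sinusoidal and scavenger endothelium held 1.7, 1.42 and 1.71% of the listed reads in type H replicates 1, 2 and 3, and 0.0282% on average in the libraries of the same series labelled sinusoidal. In CD200-high they held 0.14, 0.134 and 0.196%. All defining endothelial genes had reads in all 6 libraries.

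One scaling choice bears on every difference. Genes shared by all endothelium took a smaller share of the reads in CD200-high libraries, and when the median of the pan-endothelial list was made equal in all libraries the median difference over all genes moved from -0.05 to 1.02. The calls were then 2506 higher and 279 lower (90% higher, against 51.2%). A difference between about 0 and -1 under the authors' scaling therefore changes sign with this choice, and those are not described as losses below. In these bulk samples fewer cells of a type and less RNA per cell cannot be told apart.

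The transcript of the sorting antigen CD200 followed its gate, and that of endomucin did not separate the populations by the test. Cd200 read 9.81, 9.83 and 9.80 log2 CPM in CD200-high replicates 1, 2 and 3 and 7.80, 8.12 and 7.49 in type H. The CD200-high values lie close together and above all type H values (difference 2.01 ± 0.16, 4.02-fold, adjusted p = 1.22e-05). Emcn, the endomucin gene, read 7.84, 8.25 and 8.68 in the population gated EMCN- and 9.04, 9.03 and 8.99 in the population gated EMCN+. Its CD200-high values were all below the type H values, but the difference of -0.76 ± 0.37 did not pass (adjusted p = 0.221). It passed with voom weights (adjusted p = 0.00831) and was 0.30 (adjusted p = 0.725) with equal pan-endothelial medians.

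Ly6a, which encodes Sca1, the antigen both gates require, read 9.84, 10.17 and 10.54 in CD200-high and 9.30, 8.93 and 8.52 in type H. The groups did not overlap and the difference was 1.27 ± 0.32 (adjusted p = 0.0216), but the call was lost when CD200-high replicate 2 or 3 or type H replicate 3 was left out (adjusted p = 0.051, 0.0689 and 0.0827). Its neighbour in the family, Ly6c1, differed by 1.82 ± 0.27 (adjusted p = 0.000887). Pecam1, the CD31 gene, read 7.92, 8.22 and 8.99 and 9.06, 8.99 and 8.87, with CD200-high replicate 3 within the type H range, and its difference of -0.60 ± 0.24 did not pass (adjusted p = 0.131). Ptprc, which encodes CD45 and should be gated out of both, read 5.48, 4.69 and 5.98 in CD200-high and 3.75, 3.55 and 4.62 in type H. Both were low beside the arterial libraries of the same table (7.41 ± 0.23), and the difference of 1.41 ± 0.36 (adjusted p = 0.0252) lost its call without CD200-high replicate 1 or 3 or type H replicate 1 or 2 (adjusted p = 0.0668, 0.0762, 0.0784 and 0.075).

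**Figure D1:**
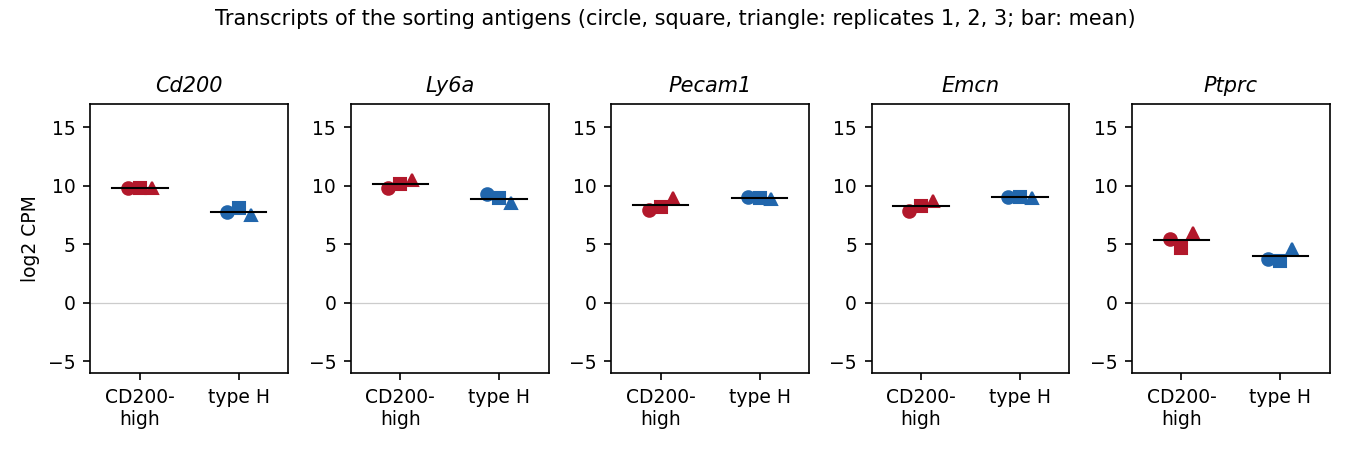
Transcript levels of the 5 sorting antigens in log2 CPM (vertical axis) for the 3 CD200-high libraries in red and the 3 type H libraries in blue, with a bar at each mean. Cd200 stands apart between the populations, while Emcn, whose protein was used to separate them, lies at 7.84 to 8.68 in CD200-high and 8.99 to 9.04 in type H.

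Of the gene lists described here, genes of bone-forming cells had the largest median difference between the populations. Of 38 tested members of a list of osteoblast and osteocyte genes, 33 were higher in CD200-high and 1 lower, with a median difference of 9.64, or 9.28 with members that had no read in type H set at their lower bound (a floor of 3 reads per library). The count was 30 to 35 under the alternatives tried. Members of this list held 18.1, 15.2 and 13.2% of the listed reads in CD200-high replicates 1, 2 and 3 and 0.557, 0.425 and 0.546% in type H. Each CD200-high library thus lay far above every type H library. The arterial libraries stood between them at 1.97% and the libraries labelled sinusoidal at 1.57% on average. The share of the 21 pan-endothelial genes ran the other way within CD200-high, highest where the bone share was lowest, at 0.43, 0.587 and 0.819% in replicates 1, 2 and 3, against 1.36, 1.41 and 1.34% in type H. Of those pan-endothelial genes 6 were lower and 0 higher (median -1.12), a count of 3 without CD200-high replicate 1 or type H replicate 3 and of 10 without CD200-high replicate 3, 17 with voom weights and 0 with equal pan-endothelial medians. The part of bone cells in the sort was not tested.

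**Figure D2:**
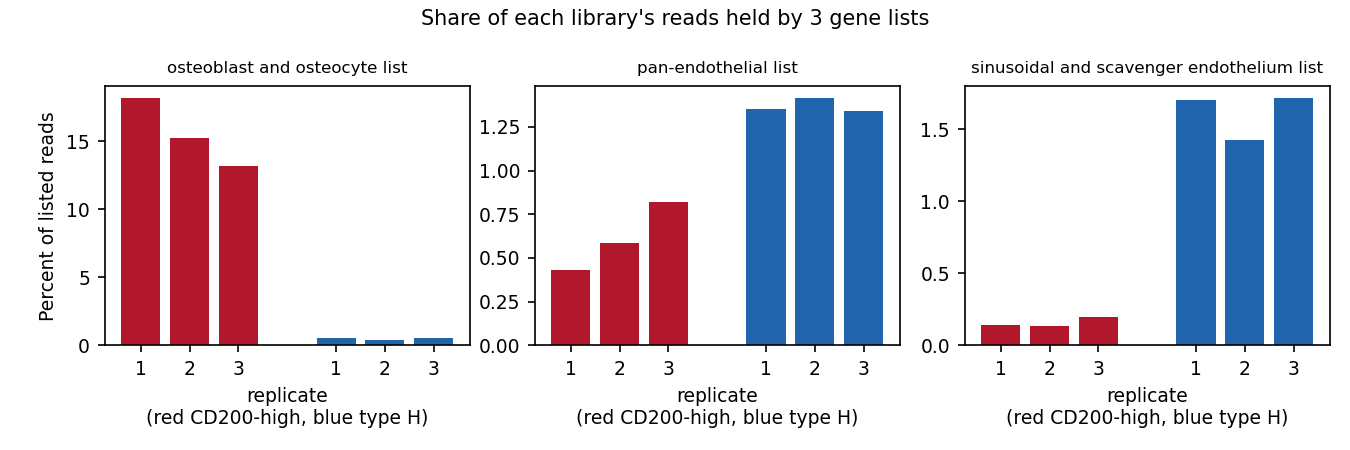
Percent of listed reads (vertical axis, a separate scale in each panel) held by 3 gene lists in each CD200-high library (red) and each type H library (blue). The osteoblast and osteocyte list holds 13.2 to 18.1% in CD200-high and 0.425 to 0.557% in type H, while the pan-endothelial and the sinusoidal lists hold more in type H.

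Osteocalcin genes, which encode a small protein of bone matrix, showed a large contrast between the populations. Bglap2 read 15.09, 14.85 and 14.72 log2 CPM in CD200-high and 1.40, 4.08 and 4.76 in type H (difference 11.47 ± 0.64, adjusted p = 1.12e-06). The near-identical copies Bglap and Bglap3 share reads with it, so the division between them is uncertain. Ibsp, which encodes bone sialoprotein, read 12.26, 12.28 and 11.61 against 8.60, 6.54 and 9.59 (difference 3.80 ± 0.59, adjusted p = 0.00129). Spp1, the osteopontin gene, read 12.91, 13.14 and 11.87 against 7.27, 6.27 and 8.16 (difference 5.40 ± 0.41, adjusted p = 8.89e-06). Both of these thus had reads in every type H library, at levels well below the lowest CD200-high value. Dmp1, a matrix protein of osteocytes, read 9.31, 10.42 and 8.79 and 1.02, -0.31 and 2.29, with no overlap (difference 8.51 ± 0.63, adjusted p = 8.02e-06).

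The transcription factors that drive osteoblast maturation were among the genes higher in CD200-high. Sp7, which encodes osterix, read 10.26, 9.30 and 8.50 in CD200-high and 2.98, -5.17 and 2.27 in type H, where replicate 2 had no read (difference 9.33 ± 1.62, adjusted p = 0.00266). Runx2, which acts before it, read 7.70, 6.14 and 6.49 and -0.89, 3.997 and 2.74 (difference 4.83 ± 0.97, adjusted p = 0.00637, or 0.0549 with only these 6 libraries in the fit). None of the 3 type H libraries reached the lowest CD200-high value for either. Dlx3, a homeobox factor of bone, had 1927, 2305 and 639 reads in CD200-high and 0, 1 and 0 in type H (adjusted p = 0.00237). Pth1r, the receptor for parathyroid hormone, read 6.41, 5.87 and 6.74 against -1.58, -0.53 and -4.95 (difference 8.70 ± 0.94, adjusted p = 0.000102). Tnfrsf11b, which encodes osteoprotegerin, the decoy receptor that holds back osteoclasts, had 288, 604 and 241 reads in CD200-high and none in type H, at least 202-fold higher than a floor of 3 reads per library (adjusted p = 0.00348).

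RUNX2 binds the letters TGTGGT, and Bglap, Spp1 and Mmp13 are textbook targets of it. Their promoters are shown because these genes were higher in CD200-high together with Runx2. Mmp13, a collagenase, read 9.71, 10.70 and 8.77 and 3.13, 4.07 and 4.60 (difference 5.79 ± 0.56, adjusted p = 4.90e-05), and Bglap read 15.39, 15.11 and 14.998 and 1.75, 4.68 and 5.19 (difference 11.29 ± 0.67, adjusted p = 1.77e-06). The sequences are the 250 bases before the RefSeq gene start (GRCm38.p6, read 5′ to 3′ on the gene's strand), with matches to TGTGGT on either strand in capitals. They lie at chr3:88384467-88384716 (minus strand), chr5:104434861-104435110 (plus strand) and chr9:7272264-7272513 (plus strand).
Bglap: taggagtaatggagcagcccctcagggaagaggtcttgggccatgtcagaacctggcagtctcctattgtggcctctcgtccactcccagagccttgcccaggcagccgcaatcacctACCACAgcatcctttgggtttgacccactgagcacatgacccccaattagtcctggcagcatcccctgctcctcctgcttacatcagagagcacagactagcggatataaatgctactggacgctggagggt
Spp1: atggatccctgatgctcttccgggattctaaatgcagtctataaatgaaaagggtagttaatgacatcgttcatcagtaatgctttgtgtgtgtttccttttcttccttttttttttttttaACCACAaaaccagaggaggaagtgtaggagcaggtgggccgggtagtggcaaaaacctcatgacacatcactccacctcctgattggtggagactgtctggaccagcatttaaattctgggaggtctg
Mmp13: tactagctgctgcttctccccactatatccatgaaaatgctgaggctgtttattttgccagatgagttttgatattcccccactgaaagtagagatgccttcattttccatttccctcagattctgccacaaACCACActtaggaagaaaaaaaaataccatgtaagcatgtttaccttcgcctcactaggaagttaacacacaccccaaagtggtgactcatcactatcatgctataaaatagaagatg
Each holds 1 match, beginning 132, 128 and 118 bases before the start in Bglap, Spp1 and Mmp13. Of the 26 tested members of the osteoblast list with a promoter in the table, 6 hold a match (23.1%), against 14.0% of all 32851 promoters there. The list was counted by the first promoter of each tested gene, and the background by every promoter, also of genes not tested. The shares are thus of unlike sets, and their difference was not tested.

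Collagen chains and the enzymes that process them were higher in CD200-high in the same libraries. Of 32 tested chains, 12 were higher and 0 lower (median 2.51), and of 29 tested genes for processing enzymes and chaperones 18 were higher and 2 lower (median 2.60), and 1 lower without CD200-high replicate 1 or any one type H library. Col1a1, a chain of type I collagen, the main fibre of bone, read 14.38, 13.82 and 13.70 in CD200-high and 1.06, 3.03 and 4.20 in type H (difference 11.20 ± 0.61, adjusted p = 1.12e-06). Its partner Col1a2 read 15.03, 14.53 and 14.43 and 4.44, 4.15 and 5.54 (difference 9.95 ± 0.41, adjusted p = 1.19e-07). The libraries of the 2 populations were far apart for both chains of bone collagen. Col4a1, a chain of vascular basement membrane, read 9.90, 10.19 and 10.47 and 9.77, 9.92 and 9.80, and the test did not call it (difference 0.36 ± 0.20, adjusted p = 0.282).

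Lox, which cross-links collagen outside the cell, read 10.98, 10.41 and 10.26 against 3.15, 4.35 and 4.38 (difference 6.59 ± 0.37, adjusted p = 1.31e-06). Plod2, which hydroxylates collagen lysines, differed by 6.07 ± 0.36 (adjusted p = 1.88e-06) and P4ha1, a prolyl hydroxylase subunit, by 3.06 ± 0.46 (adjusted p = 0.000982). Serpinh1, the collagen chaperone HSP47, read 10.88, 10.74 and 10.06 and 8.08, 8.15 and 7.65 (difference 2.60 ± 0.35, adjusted p = 0.000481). One hydroxylase was the reverse: P3h2, a prolyl 3-hydroxylase, read 0.92, -4.85 and -0.06 in CD200-high and 6.04, 6.47 and 5.38 in type H (difference -7.29 ± 1.42, adjusted p = 0.00528). The 2 members lower in CD200-high were 1 without CD200-high replicate 1 or any one type H library.

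Genes that move proteins through the endoplasmic reticulum were higher in the same direction, in smaller steps. Of 43 tested genes of this list, 22 were higher and 3 lower, with a median difference of 0.61. Kdelr3, which returns escaped proteins to the reticulum, read 9.42, 8.83 and 8.47 and 4.13, 2.30 and 2.76 (difference 5.84 ± 0.49, adjusted p = 1.86e-05). Creb3l1, a transcription factor of collagen-secreting cells, differed by 4.49 ± 0.52 (adjusted p = 0.000174). Sec31a and Sec23a, coat proteins of the vesicles that leave the reticulum, differed by 2.17 ± 0.26 (adjusted p = 0.000211) and 1.64 ± 0.22 (adjusted p = 0.000498). The count of higher members was 13 without CD200-high replicate 1, the library with the largest osteoblast share, 14 without type H replicate 3, and 11 with only the 6 libraries in the fit. That of lower members was 1 without CD200-high replicate 3 or type H replicate 2.

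Several genes for secreted inhibitors and ligands of bone were in the group as well. Dkk1, an inhibitor of Wnt signalling, had 703, 697 and 201 reads in CD200-high and none in type H, at least 278-fold higher (adjusted p = 0.0055). Wif1, which binds Wnt proteins, read 7.51, 7.73 and 6.84 and 3.41, 3.03 and 4.37 (difference 3.75 ± 0.43, adjusted p = 0.000164). Of 31 tested Wnt pathway genes 6 were higher and 1 lower (median 0.90), and 0 lower without CD200-high replicate 3 or type H replicate 2 or 3. Wnt5a, a Wnt ligand, had 134, 143 and 40 reads in CD200-high and none in type H (at least 54.8-fold higher, adjusted p = 0.0017). Among BMP and TGF-beta genes 5 of 42 tested were higher and 5 lower (median -0.01), and 3 were lower without type H replicate 3. With equal pan-endothelial medians 10 were higher and 2 lower, and the median was 1.06. Bmp3, a BMP that opposes bone formation, read 8.39, 9.08 and 8.15 against -5.28, -5.17 and -2.14, on 0, 0 and 3 reads in type H (adjusted p = 3.73e-06). Serpinf1, which encodes pigment epithelium-derived factor, an inhibitor of vessel growth, read 12.55, 11.86 and 11.60 and 2.40, 1.67 and 1.99 (difference 9.98 ± 0.36, adjusted p = 4.96e-08).

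Ranked by size, the higher genes with at least 100 scaled reads began with Prss35, a secreted protein of the trypsin family. It read 10.71, 10.02 and 9.999 in CD200-high, with 18099, 14973 and 6933 reads, and had 0, 8 and 0 reads in type H (adjusted p = 2.85e-06). Cpz, a carboxypeptidase that binds Wnt proteins, had 7921, 6724 and 1929 reads and none in type H, at least 2884-fold higher (adjusted p = 1.19e-07). Kcnk1, a potassium channel, was at least 1004-fold higher, also against no read (adjusted p = 3.73e-06). The other genes of that rank include Cpe, Smoc2, Slc36a2, Entpd3, Fxyd6 and Cthrc1, all with 0 to 3 reads in each of type H replicates 1 and 2. In type H replicate 3 Cthrc1 read 1.82 log2 CPM, and the others read between -2.63 and -1.78. The smallest adjusted p was that of Car3, a carbonic anhydrase, at 11.24, 11.06 and 10.75 in CD200-high and 0.21, -0.78 and -0.43 in type H (difference 11.35 ± 0.35, adjusted p = 1.68e-08). Ust, a sulfotransferase of matrix sugars, had 900, 1904 and 544 reads and none in type H (at least 575-fold higher, adjusted p = 1.12e-06).

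These genes had reads in the other populations of the table as well. Car3 averaged 7.46 ± 0.51 in arterial libraries and 7.05 ± 0.55 in those labelled sinusoidal, and Prss35 3.78 ± 0.46 and 5.87 ± 0.45, between the CD200-high and the type H values in each case. Col1a1 stood likewise at 10.77 ± 0.27 and 10.59 ± 0.68. Type H libraries held the lowest mean of the 4 populations for each of these 3 genes.

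Of 18 tested fibroblast genes, 7 were higher and 0 lower in CD200-high (median 3.25), among them Dcn, a collagen-binding proteoglycan, at 11.26, 10.79 and 10.57 against 2.41, -1.47 and 3.38 (difference 9.43 ± 0.96, adjusted p = 7.14e-05). Fn1, the fibronectin gene, differed by 5.46 ± 0.56 (adjusted p = 7.41e-05) and Pdgfra, a growth factor receptor of mesenchymal cells, by 3.69 ± 0.56 (adjusted p = 0.00116). Genes of reticular stroma, the marrow cells that feed blood stem cells, were divided, with 5 of 20 tested higher and 2 lower (median 0.50), and 3 higher without any one of the CD200-high libraries. Cxcl12, the chemokine that retains stem cells, read 9.88, 10.02 and 10.45 and 9.80, 9.30 and 11.09 (difference 0.05 ± 0.45, adjusted p = 0.959). Kitl, the stem cell factor gene, differed by 2.17 ± 0.45 (adjusted p = 0.00779). Lepr, the leptin receptor, read 2.51, 4.90 and 4.75 and 6.78, 6.61 and 7.27 (difference -2.84 ± 0.55, adjusted p = 0.00546, or 0.0547 with voom weights).

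**Figure D3:**
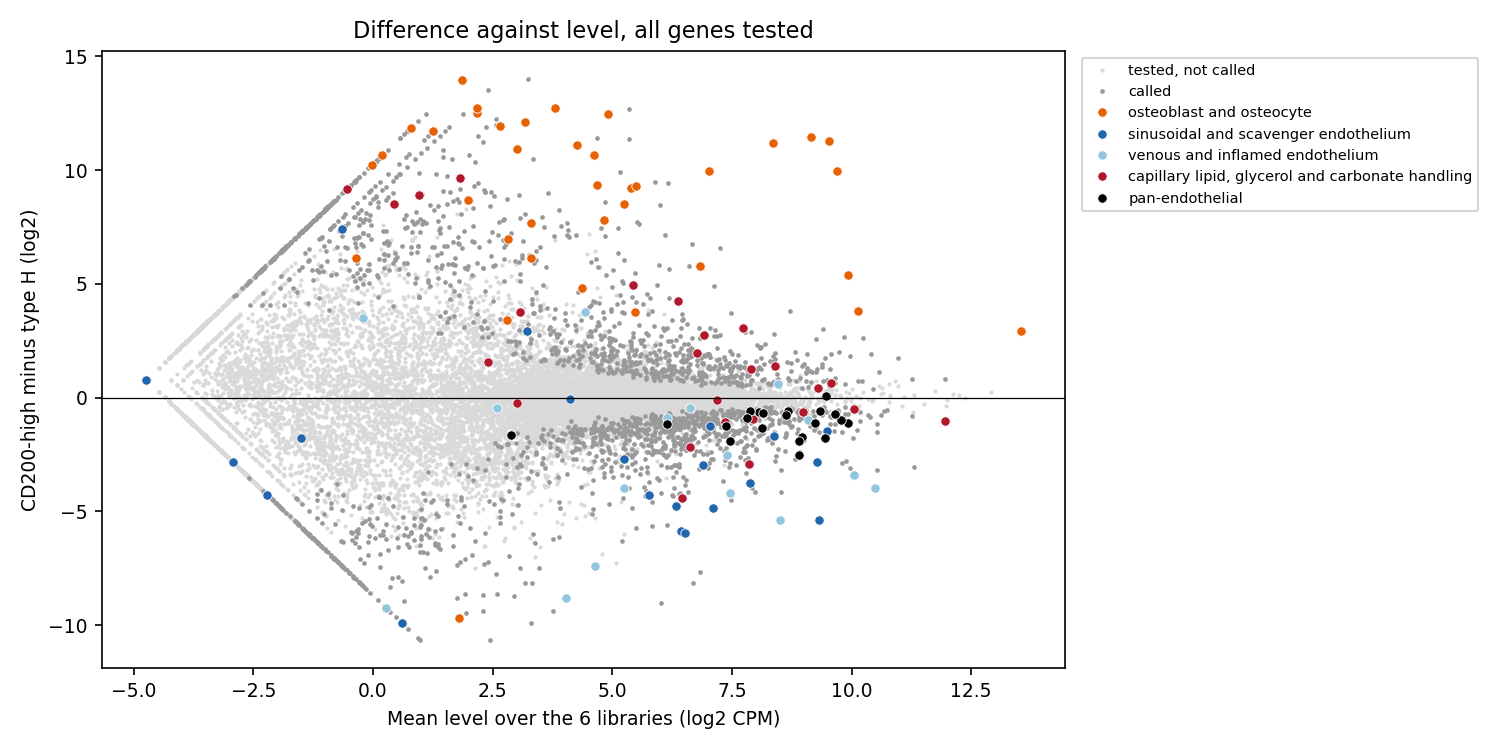
Difference between CD200-high and type H (vertical axis, log2) against the mean level over the 6 libraries (horizontal axis, log2 CPM) for all 17086 genes tested, with called genes in dark grey and 5 gene lists in colour. Osteoblast genes other than Fgf23 lie above zero, up to 13.98, sinusoidal and venous genes mostly below zero, capillary genes on both sides, and the straight edges are genes without reads in one population.

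Genes of sinusoidal and scavenger endothelium, which clears particles and waste from blood, were mostly lower in CD200-high. Of 23 tested members 15 were lower and 1 higher, with a median difference of -2.95. With equal pan-endothelial medians 11 were still called lower and 2 higher. Stab2, the scavenger receptor stabilin-2, read 4.18, 2.25 and 4.04 in CD200-high and 9.20, 9.27 and 9.63 in type H (difference -5.88 ± 0.66, adjusted p = 0.000129). Mrc1, the mannose receptor, read 3.08, 3.43 and 5.30 and 8.95, 8.28 and 8.89 (difference -4.77 ± 0.59, adjusted p = 0.000267). The type H values of both are close together and far above every CD200-high value. Fcgr2b, an Fc receptor that takes up immune complexes, differed by -4.27 ± 0.39 (adjusted p = 3.59e-05), and Flt4, the receptor for vascular growth factor C, read 6.69, 5.43 and 5.90 and 9.70, 9.62 and 9.94 (difference -3.75 ± 0.51, adjusted p = 0.000493).

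Dnase1l3, a secreted nuclease that degrades DNA in blood, read 2.80, 4.35 and 3.48 against 9.81, 9.06 and 9.63 (difference -5.96 ± 0.83, adjusted p = 0.000604). Oit3, which encodes a secreted zona pellucida domain protein, had no read in CD200-high and 869, 804 and 818 reads in type H, at least 153-fold lower (adjusted p = 0.00267). Gpr182, a scavenging receptor for chemokines, read 5.96, 6.14 and 5.74 and 10.24, 9.54 and 9.92 (difference -3.95 ± 0.66, adjusted p = 0.00198). Adamts5, a protease of matrix proteoglycans, read 4.80, 4.38 and 4.85 and 9.75, 9.11 and 9.78 (difference -4.87 ± 0.39, adjusted p = 1.45e-05). The one member that was higher in CD200-high was Cyp26b1, which degrades retinoic acid (1.45, 2.98 and 4.77 against -5.28, -2.85 and -4.95, adjusted p = 0.0057, or 0.0669 on the log2(CPM + 10) scale).

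Stab2, Mrc1 and Flt4 were also higher in type H than in the libraries labelled sinusoidal. Stab2 averaged 1.04 ± 1.11 in the libraries labelled sinusoidal, so the type H libraries exceeded them by 8.32 ± 0.66 (adjusted p = 3.28e-06). For Mrc1 the excess of type H over those libraries was 6.10 ± 0.59 (adjusted p = 1.44e-05) and for Flt4 8.14 ± 0.51 (adjusted p = 5.83e-07).

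Of 16 tested genes of venous and inflamed endothelium, 10 were lower and 0 higher in CD200-high (median -2.97). The list holds the selectins, which catch leukocytes from the blood. With equal pan-endothelial medians 8 of the 16 were called lower and 2 higher. Selp, the P-selectin gene, read -1.63, 0.99 and 3.42 in CD200-high and 8.49, 8.24 and 8.29 in type H (difference -7.41 ± 0.995, adjusted p = 0.000467). Sele, the E-selectin gene, read 1.40, -4.85 and 2.31 and 8.57, 8.32 and 8.41 (difference -8.81 ± 1.56, adjusted p = 0.00301). Every type H library was thus above every CD200-high library for both selectins. Madcam1, the addressin that binds the gut-homing integrin, had no read in any CD200-high library and 521, 363 and 767 reads in type H, at least 104-fold lower (adjusted p = 6.00e-05). Icam1, a ligand of leukocyte integrins, read 5.74, 6.87 and 5.79 and 8.68, 8.56 and 8.74 (difference -2.53 ± 0.31, adjusted p = 0.000247, or 0.0522 with equal pan-endothelial medians).

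The promoter of Madcam1 is shown because the gene had no read in one population, and NF-kB is known to drive it. The NF-kB word searched was GGG, any 2 bases, TT, any base and CC, on either strand, in the 250 bases before the start at chr10:79664309-79664558 (plus strand, GRCm38.p6, RefSeq), with matches in capitals.
Madcam1: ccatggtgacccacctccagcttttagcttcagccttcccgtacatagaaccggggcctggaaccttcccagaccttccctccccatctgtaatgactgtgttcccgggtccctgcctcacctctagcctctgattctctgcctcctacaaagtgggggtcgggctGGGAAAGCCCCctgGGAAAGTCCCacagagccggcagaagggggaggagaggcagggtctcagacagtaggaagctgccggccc
It holds 3 matches, beginning 84, 83 and 70 bases before the start, the first and second of them overlapping. The word occurs in 2 of the 13 promoters found for the venous and inflamed list (15.4%) and in 4.1% of all promoters in the table. These sets are unlike in the same way as for RUNX2, and the difference was not tested.

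Of 23 tested leukocyte adhesion genes 9 were lower and 5 higher (median -0.12), and 4 lower and 7 higher with equal pan-endothelial medians. Jam2, a junctional molecule that guides leukocytes and stem cells, read 9.15, 8.99 and 9.88 in CD200-high and 6.27, 4.61 and 6.02 in type H (difference 3.71 ± 0.46, adjusted p = 0.000257). Sdc4, a heparan sulfate proteoglycan of the surface, read 7.21, 7.80 and 7.78 and 5.07, 3.70 and 4.80 (difference 3.08 ± 0.33, adjusted p = 9.59e-05). Among junction genes 9 of 27 tested were higher and 4 lower (median 1.84), and 2 lower without CD200-high replicate 1 or type H replicate 1 or 3. Nectin2, an adhesion molecule that also binds receptors of T and NK cells, read 4.64, 4.10 and 4.88 and 8.25, 7.75 and 8.04 (difference -3.47 ± 0.49, adjusted p = 0.000706). Cdh5, the cadherin of endothelial junctions, read 7.11, 7.76 and 8.41 and 8.55, 8.35 and 8.25, and its difference of -0.63 ± 0.44 did not pass (adjusted p = 0.4).

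**Figure D4:**
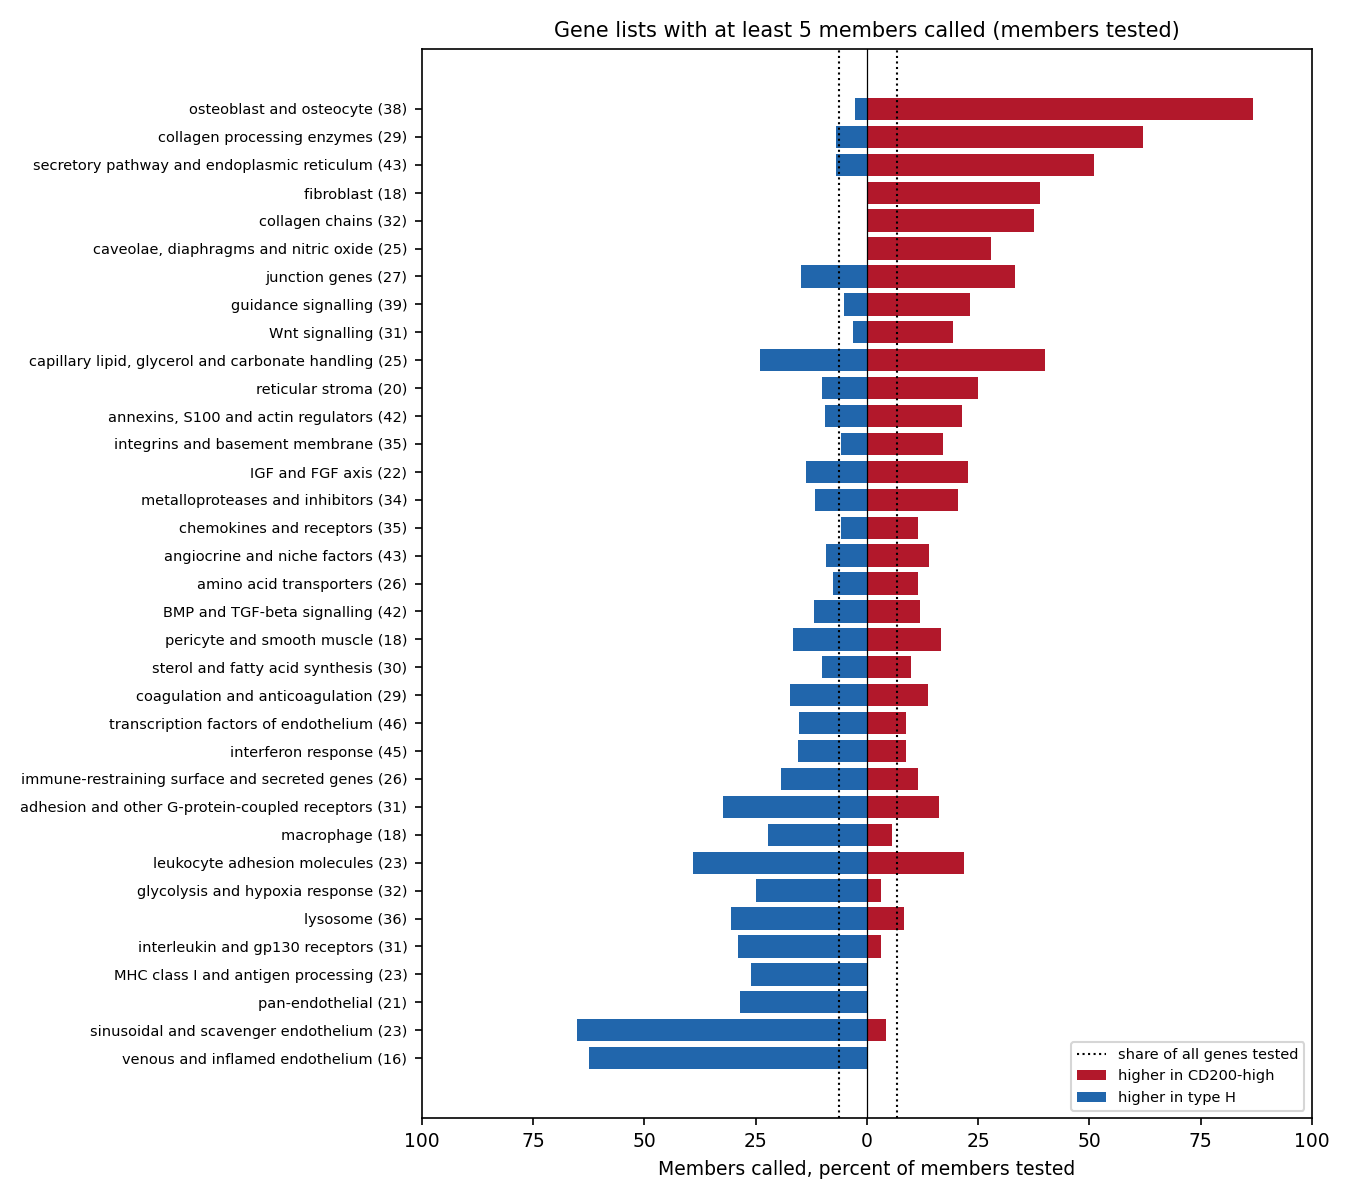
Percent of tested members called higher in CD200-high (red, to the right) or higher in type H (blue, to the left) for gene lists with at least 5 members called, with the number tested in brackets and dotted lines at the share over all genes (6.66% and 6.35%). Bone and secretory lists stand at the top and venous and sinusoidal lists at the bottom.

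Of 29 tested coagulation genes 5 were lower and 4 higher in CD200-high, and the median difference of the list changed sign with equal pan-endothelial medians (-0.29 to 0.78). Tfpi, the inhibitor of the tissue factor pathway, read 6.87, 6.05 and 7.03 in CD200-high and 12.14, 11.70 and 12.19 in type H (difference -5.36 ± 0.42, adjusted p = 1.15e-05). Thbd, thrombomodulin, which turns thrombin to an anticoagulant role, read 8.10, 8.55 and 8.83 and 11.44, 10.99 and 11.42 (difference -2.79 ± 0.20, adjusted p = 6.40e-06). Thbs1, the platelet and matrix protein thrombospondin-1, was higher in CD200-high, at 9.91, 9.63 and 8.95 and 3.11, 4.33 and 3.64 (difference 5.80 ± 0.38, adjusted p = 3.73e-06). Ptgis, the prostacyclin synthase gene, read 7.58, 7.60 and 6.85 and 0.14, -5.17 and -4.95 (difference 10.67 ± 1.25, adjusted p = 0.000184). Ptges, which makes prostaglandin E2, was the reverse at -2.85, -4.85 and 0.49 and 6.76, 7.07 and 7.12 (difference -9.39 ± 1.35, adjusted p = 0.000765).

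Of 31 tested interleukin and gp130 family receptors and adaptors 9 were lower and 1 higher in CD200-high (median -0.75), and with equal pan-endothelial medians 3 were lower and 6 higher. The number higher was 2 without CD200-high replicate 2 or type H replicate 1, and 3 without type H replicate 2. Il6st, the gp130 chain shared by the interleukin 6 family, read 8.54, 8.20 and 8.30 in CD200-high and 11.86, 11.48 and 11.95 in type H (difference -3.42 ± 0.30, adjusted p = 2.60e-05). Lifr, the receptor chain that pairs with it for leukaemia inhibitory factor, was the one member higher in CD200-high, at 10.04, 9.998 and 9.15 and 8.32, 8.31 and 8.60 (difference 1.32 ± 0.27, adjusted p = 0.00748). The 2 chains of that receptor thus differed in opposite directions. Csf2rb, the common beta chain of the GM-CSF family, read 5.47, 5.83 and 5.96 and 8.39, 8.24 and 8.69 (difference -2.69 ± 0.24, adjusted p = 2.80e-05). Epor, the erythropoietin receptor, read 4.75, 2.99 and 2.90 and 7.97, 7.47 and 8.13 (difference -4.31 ± 0.48, adjusted p = 0.00012). Jak1, a kinase that these receptors signal through, differed by -2.25 ± 0.16 (adjusted p = 5.80e-06, or 0.0529 with equal pan-endothelial medians).

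Transcription factors of endothelium were divided. Of 46 tested 4 were higher and 7 lower in CD200-high (median -0.25), and 8 and 3 with equal pan-endothelial medians. Nr2f2, which encodes COUP-TFII, the factor of venous identity, read 2.64, 3.36 and 3.77 in CD200-high and 7.40, 7.14 and 7.17 in type H (difference -3.98 ± 0.70, adjusted p = 0.00295). Pparg, a lipid-sensing nuclear receptor, read 3.82, 3.69 and 5.23 and 8.64, 8.52 and 8.81 (difference -4.41 ± 0.86, adjusted p = 0.00527). In CD200-high stood Meox2 and Tcf15, partners known from the capillaries of heart and muscle, where they raise fatty acid transport. Meox2 read 5.36, 5.10 and 5.82 against -5.28, -5.17 and 0.00, with 0, 0 and 15 reads in type H (adjusted p = 0.00132). Tcf15 read 3.50, 4.47 and 6.11 against -1.38, -5.17 and -4.95, with 7, 0 and 0 reads in type H (adjusted p = 0.000755).

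Hey1, a target of Notch linked to arterial identity, read 6.36, 5.77 and 6.44 in CD200-high and 2.37, -5.17 and 0.54 in type H (difference 6.94 ± 1.42, adjusted p = 0.00703, or 0.067 with only the 6 libraries in the fit). The Notch ligand gene Dll4 read 6.55, 6.63 and 6.64 and 6.84, 6.77 and 6.36 and did not pass (difference -0.05 ± 1.06, adjusted p = 0.984). Its SE comes from the fit to all 12 libraries and exceeds the spread of these 6 values. The receptor gene Notch1 did not pass either (difference -0.98 ± 0.33, adjusted p = 0.0721). Of 24 tested arterial genes 4 were higher and 0 lower (median 1.59), 2 were higher without CD200-high replicate 2, and 12 with equal pan-endothelial medians. Gja5, the gap junction protein connexin 40 of arterial endothelium, read 5.27, 6.07 and 5.71 in CD200-high and had 1, 0 and 0 reads in type H (adjusted p = 4.61e-05). The arterial libraries of the table stood at 4.69 ± 0.19 for Gja5, 4.97 ± 0.80 for Meox2 and 4.53 ± 0.37 for Tcf15. No difference between CD200-high and arterial libraries passed for Gja5 (0.99 ± 0.98, adjusted p = 0.564), Meox2 (0.46 ± 1.39, adjusted p = 0.869) or Tcf15 (0.17 ± 1.22, adjusted p = 0.949).

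**Figure D5:**
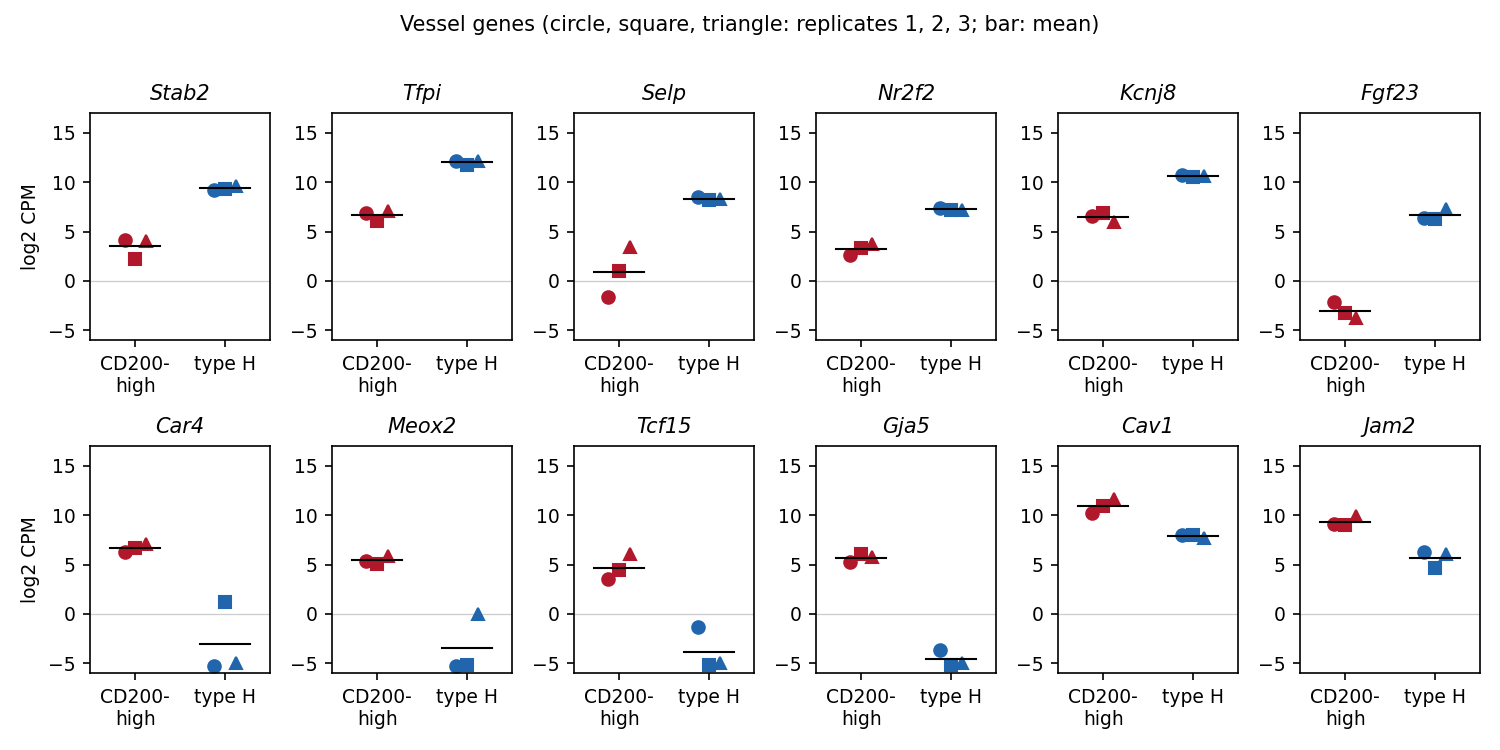
Levels in log2 CPM (vertical axis) of 12 vessel genes in the 3 CD200-high libraries (red) and the 3 type H libraries (blue), with a bar at each mean. In the upper row every type H library lies above every CD200-high library, and in the lower row the reverse, and values near -5 are genes without reads in that library.

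Genes of capillary lipid, glycerol and carbonate handling differed in both directions, with 10 of 25 tested higher and 6 lower in CD200-high (median 1.25, and 13 and 2 with equal pan-endothelial medians). Car4, the carbonic anhydrase on the capillary surface, read 6.31, 6.62 and 7.03 in CD200-high and had 0, 42 and 0 reads in type H (adjusted p = 0.00313). Aqp7, a channel for glycerol, read 7.25, 7.82 and 8.67 and 1.73, 5.13 and 2.04 (difference 4.95 ± 0.77, adjusted p = 0.00131). Slc27a3, of the fatty acid transport proteins, had 264, 248 and 70 reads and none in type H (at least 101-fold higher, adjusted p = 0.0054). Mgll, which breaks down monoglycerides, differed by 2.75 ± 0.29 (adjusted p = 8.26e-05) and Fabp5, a carrier of fatty acids, by 1.98 ± 0.32 (adjusted p = 0.00155). Against these, Angptl4, which inhibits lipoprotein lipase and is a target of Pparg, read 6.51, 7.01 and 5.64 in CD200-high and 9.75, 8.95 and 9.23 in type H (difference -2.93 ± 0.41, adjusted p = 0.000662). The fatty acid translocase gene Cd36 read 9.02, 9.11 and 10.44 and 9.29, 8.88 and 9.07 and did not pass (difference 0.44 ± 0.36, adjusted p = 0.476).

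Caveolae are small pits of the capillary surface. Of 25 tested genes of caveolae, diaphragms and nitric oxide 7 were higher and 0 lower in CD200-high (median 0.40). Cav1, their coat protein, read 10.24, 10.91 and 11.62 and 7.999, 8.01 and 7.68 (difference 3.03 ± 0.29, 8.15-fold, adjusted p = 4.90e-05). Its partner Cav2 read 8.66, 9.25 and 10.17 and 7.66, 7.19 and 7.41 (difference 1.94 ± 0.41, adjusted p = 0.0085), and Cavin1, which holds the coat together, 9.16, 9.71 and 10.31 and 8.73, 8.43 and 8.47 (difference 1.18 ± 0.25, adjusted p = 0.00776). Plvap, which forms the diaphragms of fenestrae and caveolae, read 7.33, 6.74 and 8.52 and 8.94, 10.20 and 8.57, and its difference of -1.71 ± 0.70 did not pass (adjusted p = 0.141).

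Of 9 tested VEGF ligands and receptors, Flt4 was lower and Nrp2 higher in CD200-high (median -0.06), and Kdr, the main signalling receptor, read 8.75, 9.39 and 9.97 and 10.50, 10.34 and 10.65 (difference -1.13 ± 0.36, adjusted p = 0.0611). Nrp2, a co-receptor, differed by 1.63 ± 0.42 (adjusted p = 0.0238), a call lost without CD200-high replicate 1 or 2 or type H replicate 1 or 2 (adjusted p = 0.0733, 0.0813, 0.0708 and 0.0624). Of 39 tested guidance genes 9 were higher and 2 lower (median 0.95). Sema3a, a semaphorin that binds neuropilin-1, read 3.20, 4.07 and 2.72 in CD200-high and 9.03, 8.87 and 8.95 in type H (difference -5.62 ± 1.24, adjusted p = 0.0112). Slit2 had 592, 404 and 201 reads and its receptor gene Robo2 523, 315 and 55 in CD200-high, and neither had a read in type H (at least 219-fold and 152-fold higher, adjusted p = 4.89e-05 and 8.39e-05). Sema4d, a semaphorin known to hold back osteoblasts, read 7.59, 7.19 and 6.67 and 2.80, 2.63 and 3.72 (difference 4.10 ± 0.32, adjusted p = 1.14e-05).

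Type H libraries also held genes of potassium channels best known from pericytes. Kcnj8, the pore of an ATP-sensitive channel, read 6.59, 6.84 and 5.92 in CD200-high and 10.70, 10.48 and 10.60 in type H (difference -4.15 ± 0.58, adjusted p = 0.000652). Abcc9, its regulatory subunit, read 6.02, 6.26 and 5.46 and 10.16, 9.76 and 10.27 (difference -4.15 ± 0.48, adjusted p = 0.000157). Each type H library was above each CD200-high library for both subunits. Of 18 tested pericyte and smooth muscle genes 3 were lower and 3 higher in CD200-high (median 0.84). Cspg4, the proteoglycan NG2 of pericytes, had 1502, 769 and 532 reads in CD200-high and 2, 0 and 0 in type H (adjusted p = 0.0042), and Acta2, smooth muscle actin, read 1.94, 3.34 and 0.88 and -5.28, -3.59 and 1.16 (difference 4.62 ± 1.51, adjusted p = 0.0674).

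Fgf23, the hormone gene of phosphate balance known from osteocytes, was the one member of the osteoblast list that was higher in type H. It read -2.11, -3.26 and -3.76 in CD200-high, on 2, 1 and 0 reads, and 6.36, 6.24 and 7.29 in type H, on 1600, 1364 and 2426 reads (difference -9.68 ± 1.35, adjusted p = 0.000638). The osteocyte gene Phex, whose loss is known to raise the hormone, was higher in CD200-high, at 7.995, 7.04 and 6.41 and 0.60, -5.17 and 2.94 (difference 7.69 ± 1.501, adjusted p = 0.0054, or 0.0546 with only the 6 libraries in the fit). Arterial and sinusoidal-labelled libraries had Fgf23 at -4.77 ± 0.47 and -2.58 ± 2.77.

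The largest differences towards type H were led by Adgrg6, an adhesion receptor of endothelium and Schwann cells, with 0, 10 and 0 reads in CD200-high and 4320, 4240 and 3039 in type H (adjusted p = 0.00112). Genes with no read in CD200-high followed. Crygn, named as a lens crystallin, had 2080, 748 and 1464 reads in type H (at least 262-fold lower in CD200-high, adjusted p = 0.00334), and Lck, a kinase known from T cells, 1213, 529 and 818 (at least 156-fold lower, adjusted p = 2.44e-06). The 9 tested genes of T and NK cells held 0.000474, 0.00426 and 0.00142% of reads in CD200-high and 0.00753, 0.00475 and 0.0082% in type H, with no overlap. Lck was the 1 called, against 2 called without CD200-high replicate 2. Lck alone made up most of the type H share, and without it the shares overlapped. The median difference of the list was 0.08. Cxadr, a junction protein and virus receptor, read 1.18, -2.53 and -1.44 and 8.58, 8.18 and 8.59 (difference -9.38 ± 1.25, adjusted p = 0.000458). By adjusted p the list was led by Mgst1, a glutathione transferase, at 5.83, 6.24 and 6.34 and 9.60, 9.28 and 9.46 (difference -3.31 ± 0.18, adjusted p = 1.01e-06). Selenop, a selenium carrier of plasma, read 9.53, 9.88 and 9.96 and 12.98, 12.59 and 12.91 (difference -3.04 ± 0.20, adjusted p = 3.73e-06).

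Of 26 tested genes that restrain immune cells or complement, Cd200 included, 3 were higher and 5 lower in CD200-high (median -0.23), with 3 lower without type H replicate 1 and 2 without type H replicate 3. With equal pan-endothelial medians 5 were higher and 2 lower, and the median turned to 0.83. Lgals1, the gene of galectin-1, a secreted lectin that restrains T cells, read 10.14, 9.60 and 9.58 in CD200-high and 7.07, 6.97 and 6.96 in type H (difference 2.78 ± 0.15, adjusted p = 1.12e-06). Of the complement regulators, Cd59a, which blocks the membrane pore, read 8.04, 8.44 and 8.02 and 6.50, 6.95 and 6.13 (difference 1.64 ± 0.23, adjusted p = 0.000701). Cd55, which disassembles the convertases before it, was higher in type H, at 3.37, 5.64 and 5.41 and 7.54, 7.59 and 8.15 (difference -2.95 ± 0.51, adjusted p = 0.00255). The 2 regulators thus differed in opposite directions, with no overlap between the populations for either.

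Of 31 tested G-protein-coupled receptors and their partners 5 were higher and 10 lower in CD200-high (median -0.16), and 7 and 4 with equal pan-endothelial medians. Adora2a, the adenosine receptor that widens vessels, read 2.13, 2.60 and 2.39 in CD200-high and 6.21, 5.78 and 5.19 in type H (difference -3.35 ± 0.50, adjusted p = 0.00104). Ramp1, the partner protein that makes a receptor for the neuropeptide CGRP, read 8.88, 8.45 and 7.80 and 3.75, 4.69 and 3.60 (difference 4.36 ± 0.35, adjusted p = 1.45e-05). The populations did not overlap for either gene, and each was the higher one for 1 of them.

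Of 34 tested metalloproteases and inhibitors 7 were higher and 4 lower in CD200-high (median 0.56). Mmp2, which cuts denatured collagen and basement membrane, read 10.75, 10.02 and 9.89 in CD200-high and 2.37, 3.48 and -0.56 in type H (difference 8.46 ± 0.95, adjusted p = 0.00013). Mmp16, a protease held in the cell membrane, had 2584, 2667 and 939 reads in CD200-high and 2, 0 and 0 in type H (adjusted p = 4.66e-06). Of 7 tested PDGF ligands and receptors 4 were higher and 0 lower (median 2.71). Pdgfc, a ligand of PDGF receptor alpha, had 321, 894 and 284 reads in CD200-high and none in type H (at least 259.8-fold higher, adjusted p = 9.95e-05). Pdgfd, a ligand of PDGF receptor beta, read 7.90, 7.84 and 7.60 and 5.46, 4.80 and 4.96 (difference 2.71 ± 0.47, adjusted p = 0.0028). Fgfr1, a receptor of fibroblast growth factors, differed by 3.70 ± 0.51 (adjusted p = 0.000564) in a list of 22 tested IGF and FGF genes with 5 higher and 3 lower (median 0.50).

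Of 6 tested adipocyte genes 2 were lower and 0 higher in CD200-high (median -0.02). Adipoq, adiponectin, a hormone of fat, had 2, 2 and 2 reads in CD200-high and 1655, 1164 and 2772 in type H (difference -8.66 ± 0.51, adjusted p = 1.77e-06), and Cfd, adipsin, no read and 2594, 1431 and 710 (at least 279-fold lower, adjusted p = 0.00789). The adipocyte markers Plin1 and Cidec are not among the deposited genes. Adipoq is also made by reticular stroma. Adipoq and Lepr were the 2 of 20 tested reticular genes that were higher in type H, while 5 were higher in CD200-high (median 0.50). The part of such cells in the result was not tested.

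Of 36 tested lysosome genes 11 were lower and 3 higher in CD200-high (median -0.11), and 1 lower and 6 higher with equal pan-endothelial medians. Ctsl, a cathepsin, read 8.05, 7.67 and 7.90 and 10.92, 10.37 and 10.79 (difference -2.82 ± 0.21, adjusted p = 7.87e-06). Of 32 tested genes of glycolysis and the hypoxia response 8 were lower and 1 higher (median -0.35), with 5 lower without type H replicate 3 and 0 lower with equal pan-endothelial medians. Scd1, a desaturase of fatty acids, read 7.81, 7.50 and 8.02 in CD200-high and 3.08, 1.95 and 2.89 in type H (difference 5.14 ± 0.40, adjusted p = 1.14e-05). Insr, the insulin receptor, differed by -2.86 ± 0.33 (adjusted p = 0.000164). Of 41 tested cell cycle genes 2 were higher and 2 lower (median 0.01), with 4 higher without type H replicate 2, 4 lower without CD200-high replicate 2 and 1 lower without type H replicate 3. Mki67, a marker of dividing cells, read 5.65, 6.58 and 5.15 and 3.30, 6.45 and 4.14 (difference 1.16 ± 0.63, adjusted p = 0.269).

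The shares of reads from neutrophil and from erythroid genes overlapped between the populations. The 15 neutrophil genes held 0.743, 0.622 and 1.09% of reads in CD200-high and 0.469, 0.565 and 0.81% in type H, with 1 called (higher), 0 without CD200-high replicate 2, 2 without type H replicate 3 and 8 with equal pan-endothelial medians. The 16 erythroid genes tested held 0.26, 0.381 and 0.219% and 0.367, 0.707 and 0.452%, with 3 lower, Epor among them, a count that ran from 1 to 5 as single libraries were left out (1 without CD200-high replicate 1 or 3 or type H replicate 1 or 2, and 5 without CD200-high replicate 2). The shares of the 14 tested genes of megakaryocytes and platelets did not overlap, at 0.0894, 0.0867 and 0.053% in CD200-high and 0.00886, 0.00786 and 0.00767% in type H. Of these genes 2 were higher, Thbs1 among them, and 0 lower. Thbs1 alone made up most of the CD200-high share, and without it the shares overlapped. The part of these blood cells in the results was not tested. Of 17 tested chondrocyte genes 3 were higher and 0 lower in CD200-high (median 2.27). Their share of reads was 0.175, 0.186 and 0.106% in CD200-high and 0.0475, 3.43e-05 and 0.00103% in type H. Col2a1, the cartilage collagen, read 8.56, 8.31 and 7.49 in CD200-high and 8.02, -5.17 and -0.09 in type H, and only replicate 1 of type H held it at the CD200-high level (difference 7.20 ± 2.30, adjusted p = 0.0626). Col10a1, of hypertrophic cartilage, read -1.27, 8.47 and -3.76 in CD200-high, high in replicate 2 alone, and -0.76, -5.17 and 3.13 in type H (adjusted p = 0.678).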

How the data were processed

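RNA of sorted marrow endothelial cells (4 populations, 3 libraries each) was made into libraries with the Clontech Ultra Low v4 kit and NexteraXT and sequenced as 150 base reads on a NovaSeq6000, per the labels' protocols. The submitters' processing notes list Trimmomatic, STAR, SAMtools, featureCounts, deepTools and R 4.3. They name a human build for these mouse samples, so no coordinates were taken from the files, and the counting of strand is not given in the sources used here. Without strand, reads of a gene and an overlapping antisense gene cannot be told apart. Copies that are nearly identical, such as the osteocalcin genes, may have shared reads.

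The authors deposited log2 CPM values with 0.5 read added. Their scaling between libraries is not given in the sources used here. Whole reads could be recovered from 100% of the values within 0.01 read. Of 17362 genes, 276 that did not reach 10 reads (scaled to the mean library) in at least 3 libraries were left out. The rest were fitted with limma 3.58.1 in R 4.3.3 on the deposited log2 values, with a term for each population, all 12 libraries and a mean-variance trend, and p-values were adjusted by Benjamini-Hochberg over all 17086 genes.

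Named genes were the sorting antigens, the 15 largest differences and 10 smallest p-values in each direction (groups without overlap and a mean of at least 100 scaled reads), up to 6 called members of each list, and sister members that complete a pathway. The comparison, the members and the lists were chosen with earlier results of these data known. Libraries of one population differed by far more than sampling noise (chi-square per degree of freedom 65.6 to 125), so none was a copy of another. Reads were also simulated for these genes with a dispersion of 0.1, with 100 genes changed 2-fold and 100 changed 4-fold. The fit found 9% of genes changed 2-fold and 97% of those changed 4-fold, with 7 false calls. Far fewer genes changed there than were called in the data, which makes the adjusted threshold stricter. These shares therefore do not measure the power of the present comparison. Promoters came from RefSeq (GRCm38.p6). Alternatives were other scalings, added values and filters, voom weights, a replicate block, a fit to the 6 libraries, and leaving out each library.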

Additional observations from a re-analysis of the deposited data

How the results depend on the processing

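The count of called genes was 1689 to 2328 when single libraries were left out and 1337 with only the 6 libraries in the fit, which has fewer samples to estimate the spread, against 2223. The other alternatives gave 1743 to 2785, and no gene called in both had the opposite direction under any of them. Of the 120 called genes named, 110 kept their call and direction under every alternative tried, 3 lost the call without some library and 10 under another alternative. Making the total over listed genes equal moved the median difference by -0.13 and gave 1031 higher and 1370 lower calls, equal totals outside the osteoblast, reticular, erythroid and neutrophil lists moved it by 0.10 (1292 and 927), and equal pan-endothelial medians moved it by 1.07. Directions changed only among named genes that were not called. With equal pan-endothelial medians the difference was 0.44 for Cdh5, 1.02 for Dll4, 0.30 for Emcn, 0.089 for Notch1 and 0.47 for Pecam1. Dll4 was also 0.024 with quantile normalization and 0.055 with equal totals outside those lists, and Cxcl12 -0.086 with equal totals over all listed genes. As single libraries were left out, the difference ran from -0.013 to 0.69 for Cd36, from -1.58 to 4.54 for Col10a1, from -0.33 to 0.56 for Cxcl12 and from -0.20 to 0.045 for Dll4. Same-numbered libraries of the 2 populations showed no shared deviation (correlation -0.02, -0.05 and 0.02 over 12183 genes). Such values cannot tell whether these libraries came from the same mice. A fit with the replicate number as a block called 2119 genes, 2002 of them among the 2223. With 3 libraries a population, changes of 2-fold were rarely found on simulated data with few changed genes, while some differences under 2-fold were called in the real data. Genes of few reads limit what could be called.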
